A study of Homo sapiens with 6 samples.

Results

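The genes described here are 60 human genes whose proteins act in the making of ribosomal RNA (rRNA) or reside in the nucleolus, chosen by symbol from a fixed list and found by their Ensembl rows in a table of 58395 genes. They comprise 6 genes of RNA polymerase I, 3 of box C/D and 3 of box H/ACA small nucleolar ribonucleoproteins (snoRNPs), 5 other nucleolar proteins, 27 factors of the small ribosomal subunit and 16 of the large one. All 60 were among the 23806 genes tested.

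RNA-seq was performed on MDA-MB-231 cells, an invasive breast adenocarcinoma line, 65 h after transfection by the labels (the methods of the study give a slightly later time). CRP2-depleted cells had received an siRNA against CRP2 (siCRP2, 3 libraries) and control cells a non-targeting siRNA (siCTR, 3 libraries), so that both groups were transfected. CRP2, encoded by CSRP2, is a LIM domain protein that binds actin filaments and also occurs in the nucleus. As a model of depletion the siCRP2 group rests on a single siRNA sequence in a single line.

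Ribosome production begins in the nucleolus, where RNA polymerase I transcribes a long precursor from repeated rRNA genes. Box C/D and box H/ACA snoRNPs methylate and pseudouridylate the precursor, and the small-subunit processome folds it and cuts out the rRNA of the small subunit, while other factors assemble the precursors of the large subunit. Tumour cells often have enlarged nucleoli, and the genes of this pathway are known to be transcribed together in growing cells, many of them bound by the transcription factor MYC and its partner MAX.

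Libraries held 17336798 to 39115778 counts, so that 1 count was worth 0.0256 to 0.0582 CPM (scaled counts-per-million). Within each group, values are given in the order of the codes 0412, 0611 and 1311 that end the column names of the table. CSRP2 itself was at 2.17, 1.78 and 1.89 CPM in siCRP2 libraries, against 13.7, 11.7 and 11.4 CPM in siCTR libraries. Markers of the line (VIM, CD44, KRT8, KRT18, EGFR and AXL) were detected in all libraries, and of these 6 AXL was lower (log2 fold change -1.06, adjusted p = 3.1e-06, edgeR). Of 8 luminal breast markers the receptor gene PGR had no count and ESR1 and FOXA1 were at or below 0.141 CPM, while CDH1, encoding E-cadherin, was higher (0.94, adjusted p = 0.00065) and ERBB2, GATA3, KRT19 and EPCAM did not pass. With libraries paired by code KRT19 and EPCAM were lower (adjusted p = 0.0052 and 0.00013). The p-values of this paired fit, here and below, measure little of each gene's own spread between pairs. The lymphocyte gene CD3E was at or below 0.0256 CPM.

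Of the 60 genes, 33 were higher and 0 lower in CRP2-depleted cells at an adjusted p under 0.05 (edgeR quasi-likelihood test, Benjamini-Hochberg adjustment over all genes tested). Among all 23806 genes, 12.5% were higher and 11.5% lower. The listed genes are mostly well expressed, and among the 10446 protein-coding genes that averaged 5 CPM or more the shares were 25.9% higher and 18% lower. The median log2 fold change of the 60 genes was 0.32, against -0.02 for all genes tested and 0.08 for those protein-coding genes. In this bulk measurement more cells carrying a transcript and more transcript in each cell cannot be told apart.

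The changes were modest in size. Of the 33 genes, 11 were higher by at least 1.5-fold, a limit that 4.58% of all genes tested passed, and NOC3L was higher by over 2-fold. The count of 11 fell to 7 without the siCRP2 library 0611 or 1311 and to 6 without the siCTR library 0611. In 39 of the 60 genes every siCRP2 library lay above every siCTR library, which held for 19.4% of all genes. In 2 of the 60, IMP3 and PPAN, every siCRP2 library lay below, which held for 18% of all genes. The summed level of the 60 genes was 5703, 6019 and 5987 CPM in siCRP2 libraries, against 5035, 4616 and 4597 CPM in siCTR libraries, and these sums did not overlap.

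**Figure D1:**
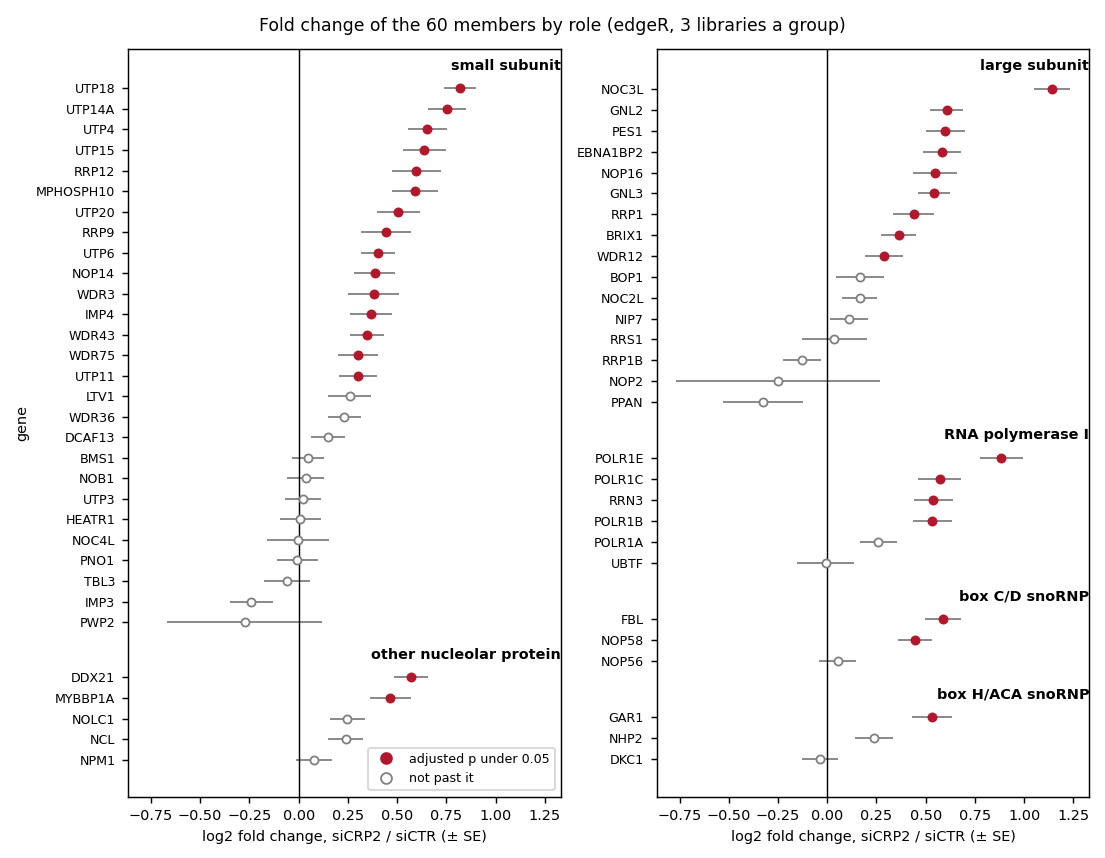
Log2 fold change of siCRP2 over siCTR cells for each of the 60 genes, grouped by role, with bars of 1 standard error on either side (3 libraries a group). Filled red points passed an adjusted p of 0.05. NOC3L stands farthest to the right at 1.14, and no gene on the left of 0 is filled.

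By role, 4 of 6 RNA polymerase I genes, 2 of 3 box C/D genes, 1 of 3 box H/ACA genes, 2 of 5 other nucleolar genes, 15 of 27 small-subunit genes and 9 of 16 large-subunit genes were higher. The median log2 fold changes were 0.54 for RNA polymerase I, 0.45 for box C/D, 0.24 for box H/ACA, 0.25 for other nucleolar proteins, 0.30 for the small subunit and 0.33 for the large subunit. None of these medians changed sign under any scaling of the libraries that was tried. The roles hold few genes each, and their differences are given as a description. Without the siCTR library 0412, 2 box H/ACA genes and 4 other nucleolar genes were higher, with 13.3% of all genes higher in that fit.

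Libraries that share a code were compared as pairs. For code 0412 the median log2 ratio of siCRP2 over siCTR was 0.35 for RNA polymerase I, 0.21 for the small subunit and 0.21 for the large subunit. For code 0611 these medians were 0.64, 0.34 and 0.41 in the same order of roles. For code 1311 they were 0.56, 0.40 and 0.35. RNA polymerase I thus had the highest median of these roles in each of the 3 pairs, whereas the small and large subunits differed by 0.08 or less in each and not in a constant direction. Box C/D, not among these roles, had a higher median than RNA polymerase I for code 0412 (0.38). Its medians were lower than those of RNA polymerase I for codes 0611 (0.52) and 1311 (0.44).

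**Figure D2:**
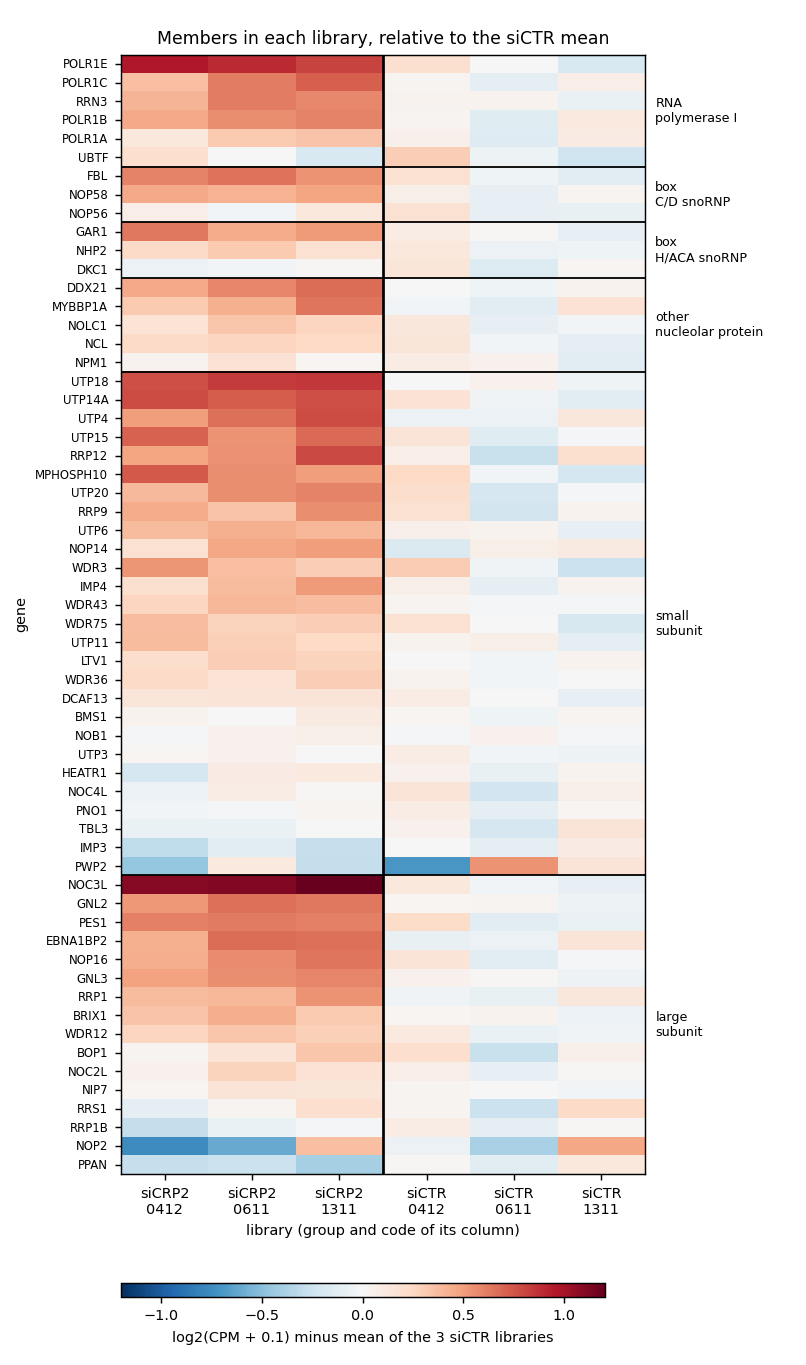
Level of each gene in each library as log2(CPM + 0.1) minus the mean of the 3 siCTR libraries, with siCRP2 libraries left of the black line and siCTR libraries right of it. Red is above the siCTR mean and blue below it. Most rows are red in all siCRP2 columns. IMP3, PPAN, RRP1B and TBL3 lie below the siCTR mean in all 3, TBL3 only slightly.

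RNA polymerase I is the enzyme that makes the rRNA precursor. POLR1E (ENSG00000137054, GRCh38 chr9:37485948-37503697), a subunit that helps the enzyme start and elongate, was at 57.8, 55 and 52 CPM in siCRP2 cells, against 33.7, 29.5 and 26 CPM in siCTR cells. The groups did not overlap, and within each group the 0412 library was highest and the 1311 library lowest. POLR1E was higher by 0.88 ± 0.11 on the log2 scale (SE, adjusted p = 1.6e-05, edgeR). Per length of all annotated exons joined, it was the most abundant of the 6 genes, at 22.0 CPM per kb in siCRP2 cells and 11.9 in siCTR cells. That rank depends on the length taken. POLR1C has 5505 joined exon bases against 2499 in POLR1E, but a shorter canonical transcript (1275 against 1855 bases), by which it would rank above POLR1E.

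RRN3, which recruits the polymerase to rRNA gene promoters and is a target of growth signalling, was at 47.9, 55.3 and 53.7 CPM in siCRP2 cells and at 37.0, 37.0 and 34.1 CPM in siCTR cells, a log2 fold change of 0.54 ± 0.10 (adjusted p = 0.00062, edgeR). Every siCRP2 library was above every siCTR library. Parts of its transcript have copies elsewhere on chromosome 16, of up to 98.2% identity, and reads that match both are not counted.

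POLR1C, a subunit shared with RNA polymerase III, was at 51.1, 60.8 and 65.4 CPM in siCRP2 cells, against 40.8, 36.7 and 42.0 CPM in siCTR cells. It was higher by 0.57 ± 0.11 (adjusted p = 0.00077, edgeR), with the lowest siCRP2 library still above the highest siCTR library. POLR1B, the second-largest subunit, was higher by 0.53 as well. POLR1A, the largest, did not pass (log2 fold change 0.26, adjusted p = 0.055), although its groups did not overlap, and passed with libraries paired by code (adjusted p = 0.00031). UBTF, which binds and holds open the rRNA genes, was at 105, 91.3 and 80.4 CPM in siCRP2 cells and 112, 87.8 and 77.4 CPM in siCTR cells. Its groups overlapped, with the highest value in library 0412 and the lowest in 1311 of both groups, and its log2 fold change was -0.01 ± 0.14.

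Box C/D snoRNPs carry out the 2'-O-methylation of rRNA. Their methyltransferase FBL, fibrillarin (ENSG00000105202, chr19:39834458-39846379), was at 155, 161 and 148 CPM in siCRP2 cells, against 116, 98.7 and 93.5 CPM in siCTR cells. The groups were well separated, and the log2 fold change was 0.59 ± 0.09 (adjusted p = 0.00016, edgeR). FBL was the most abundant of the class per length, at 72.3 CPM per kb in siCRP2 cells and 48.1 in siCTR cells.

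NOP58, a core protein that holds the guide RNA, was at 82.5, 80.8 and 83.6 CPM in siCRP2 cells and 63.2, 56.4 and 61.6 CPM in siCTR cells (log2 fold change 0.45 ± 0.09, adjusted p = 0.00097, edgeR). Its groups did not overlap, whereas its partner NOP56, at 0.05 ± 0.09, had overlapping groups. Of the 3 genes of this particle, 2 passed the test.

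Box H/ACA snoRNPs convert uridines of rRNA to pseudouridine. GAR1, a small core protein (ENSG00000109534, chr4:109815510-109824740), was at 49.2, 43.2 and 45.1 CPM in siCRP2 cells, against 33.8, 31.9 and 29.5 CPM in siCTR cells, and was higher by 0.53 ± 0.10 (adjusted p = 0.00097, edgeR). NHP2, the most abundant per length (36.6 CPM per kb in siCRP2 cells and 31.0 in siCTR cells), was at 53.4, 56.7 and 51.9 CPM in siCRP2 cells, against 49.9, 43.4 and 43.9 CPM in siCTR cells. Its groups were close without overlapping, and it did not pass (log2 fold change 0.24, adjusted p = 0.087), but passed with libraries paired by code (adjusted p = 0.0042). The pseudouridine synthase itself, DKC1, was at -0.04 ± 0.09 with overlapping groups. NHP2 has a copy on chromosome 10 of 97.6% identity, which limits the reads that can be assigned to it. The same limit holds for GAR1, whose whole transcript has a copy of 93.2% identity elsewhere on chromosome 4.

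Among the other nucleolar proteins, DDX21, an RNA helicase that binds both rRNA precursors and snoRNAs (ENSG00000165732, chr10:68956135-68985068), was at 376, 414 and 438 CPM in siCRP2 cells and 277, 265 and 284 CPM in siCTR cells. The groups did not overlap, and it was higher by 0.57 ± 0.09 (adjusted p = 0.00011, edgeR). MYBBP1A, which binds RNA polymerase I and Myb, was at 87.7, 94.4 and 110.0 CPM in siCRP2 cells, against 68.6, 63.9 and 79.4 CPM in siCTR cells (log2 fold change 0.46 ± 0.10, adjusted p = 0.0033, edgeR). The remaining 3 genes, among them the most abundant, did not pass in the fit without pairing. NPM1, nucleophosmin, the most abundant per length at 109 CPM per kb in siCRP2 cells and 103 in siCTR cells, was at 879.7, 964 and 869 CPM in siCRP2 cells, against 908, 887 and 778 CPM in siCTR cells, and these values overlapped. A copy elsewhere on chromosome 5 has 98.2% identity over 98.7% of the NPM1 transcript, which limits the reads that can be assigned to NPM1. NCL, nucleolin, had a log2 fold change of 0.24 ± 0.09 (adjusted p = 0.063) and NOLC1, a chaperone of snoRNPs, one of 0.25 ± 0.09 (adjusted p = 0.051). With libraries paired by code both passed as higher (adjusted p = 0.00051 for NCL and 0.00034 for NOLC1).

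The small-subunit processome assembles on the nascent precursor from named modules. UTP18, of the UTP-B module (ENSG00000011260, chr17:51260546-51297936), was at 138, 145 and 146 CPM in siCRP2 cells, against 81.1, 83.9 and 78.1 CPM in siCTR cells. It was the most abundant of the 27 genes per length, at 52.9 CPM per kb in siCRP2 cells and 30.0 in siCTR cells, and with a log2 fold change of 0.82 ± 0.08 (adjusted p = 1.7e-06, edgeR) it had the smallest p of the role. UTP14A, which in yeast activates the helicase that removes the snoRNA from the precursor (ENSG00000156697, chrX:129906121-129929761), was at 73.5, 70.9 and 73.0 CPM in siCRP2 cells and 48.3, 41.5 and 39.1 CPM in siCTR cells. It was higher by 0.75 ± 0.10 (adjusted p = 2.4e-05, edgeR). In both genes the groups were far apart relative to the spread within them. Copies elsewhere match 100% of the UTP18 transcript at 93.1% identity and 99.2% of the UTP14A transcript at 94.2% identity. These copies limit the reads that can be assigned to both genes.

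UTP-A proteins bind the first-made end of the precursor and are needed in yeast for its transcription. UTP4 was at 68.7, 76.8 and 83.3 CPM in siCRP2 cells, against 46.1, 46.1 and 53.3 CPM in siCTR cells (log2 fold change 0.65 ± 0.10, adjusted p = 0.00012, edgeR). UTP15 was at 43.8, 38.8 and 42.8 CPM in siCRP2 cells, against 29.8, 24.2 and 26.5 CPM in siCTR cells (0.64 ± 0.11, adjusted p = 0.00035). Neither gene had overlapping groups, and WDR43 (0.35) and WDR75 (0.30) of the module were higher too. Thus 4 of its 5 genes passed, but 2 of 5 with offsets for GC content and length. The fifth, HEATR1, was at 0.01 ± 0.10.

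Of the 6 UTP-B genes, 3 were higher: UTP18, UTP6 (0.40) and WDR3 (0.38, with groups that overlapped). WDR36 was at 0.23 with adjusted p = 0.057 (0.0025 with libraries paired by code), TBL3 at -0.06 and PWP2 at -0.27. PWP2 had only 10 to 24 counts per library, and its whole transcript has a copy of 99.8% identity at chr21:5130871-5154658 of GRCh38, and since reads that match both places are not counted, its value is uncertain.

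Of the proteins tied to the snoRNP that guides the first cuts, MPHOSPH10, which forms a complex with IMP3 and IMP4, was at 52.8, 46.6 and 44.9 CPM in siCRP2 cells, against 37.3, 30.9 and 27.4 CPM in siCTR cells (log2 fold change 0.59 ± 0.12, adjusted p = 0.0014, edgeR). RRP9 (0.45) and IMP4 (0.37) were higher as well. The third gene of the complex did otherwise. IMP3 was at 25.4, 28.6 and 26.0 CPM in siCRP2 cells and 31.5, 29.2 and 33.7 CPM in siCTR cells, with all siCRP2 libraries lower and a log2 fold change of -0.24 ± 0.11 that did not pass (adjusted p = 0.13). It passed as lower when libraries were paired by code (adjusted p = 0.012).

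RRP12, a repeat protein that accompanies precursors of the small subunit out of the nucleus, was at 47.5, 50.2 and 59.4 CPM in siCRP2 cells, against 36.1, 28.5 and 39.1 CPM in siCTR cells (log2 fold change 0.60 ± 0.12, adjusted p = 0.0019, edgeR). Without pairing it was the only late small-subunit factor of the 4 listed that passed. NOB1, the nuclease of the last cut, was at 0.04, its partner PNO1 at -0.01 and the export adaptor LTV1 at 0.26 (adjusted p = 0.11, and 0.015 with libraries paired by code). The remaining processome genes divided likewise. UTP20 (0.51), NOP14 (0.39) and UTP11 (0.30) were higher, while DCAF13 was at 0.15, the GTPase BMS1 at 0.05, UTP3 at 0.02 and NOC4L, the partner of NOP14, at -0.0033, none of which passed.

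The large subunit held the gene with the largest change of all 60. NOC3L, which travels with NOC2L on early large-subunit precursors (ENSG00000173145, chr10:94333226-94362959), was at 97.3, 98.6 and 106 CPM in siCRP2 cells, against 49.8, 44.7 and 42.6 CPM in siCTR cells. Every siCRP2 library was far above every siCTR library, and the log2 fold change was 1.14 ± 0.09 (adjusted p = 1.6e-07, edgeR). NOC2L, its partner, was at 0.17 ± 0.09 and did not pass (adjusted p = 0.21, and 0.036 with libraries paired by code).

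The nucleolar GTPases GNL2 and GNL3 were both higher. GNL2 (ENSG00000134697, chr1:37566816-37595937) was at 113, 124 and 122 CPM in siCRP2 cells, against 79.9, 80.7 and 75.6 CPM in siCTR cells (log2 fold change 0.61 ± 0.08, adjusted p = 4.7e-05, edgeR). GNL3, nucleostemin, was at 174, 183 and 187 CPM in siCRP2 cells, against 129, 126 and 119.5 CPM in siCTR cells (0.54 ± 0.08, adjusted p = 0.0001). In neither gene did the groups overlap. GNL3 was the most abundant of the 16 genes per length of joined exons, at 56.1 CPM per kb in siCRP2 cells and 38.6 in siCTR cells. By canonical transcript (1933 bases in GNL3 and 1352 in EBNA1BP2) EBNA1BP2 would rank above it.

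EBNA1BP2, an assembly factor of early large-subunit precursors, was at 143, 169.6 and 169 CPM in siCRP2 cells, against 100.5, 102 and 119 CPM in siCTR cells (log2 fold change 0.58 ± 0.10, adjusted p = 0.00023, edgeR). PES1, pescadillo, was at 79.2, 80.2 and 79.3 CPM in siCRP2 cells and 60.7, 47.3 and 49.3 CPM in siCTR cells (0.60 ± 0.10, adjusted p = 0.00027). Both had groups that did not overlap. A copy on chromosome 9 of 90.85% identity limits the reads that can be assigned to PES1. PES1 forms a complex with BOP1 and WDR12, of which WDR12 was higher (0.29, adjusted p = 0.038) and BOP1 did not pass (0.17, adjusted p = 0.36).

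NOP16 (0.55), RRP1 (0.44) and BRIX1 (0.36), all factors of early large-subunit assembly, were higher. NIP7 (0.11), RRS1 (0.04) and RRP1B (-0.13) did not pass. The lowest fold changes of the role belonged to PPAN (-0.33 ± 0.20, adjusted p = 0.28) and NOP2 (-0.25 ± 0.52, adjusted p = 0.78), whose counts are uncertain. PPAN had 56 to 106 counts per library and shares 1422 of its 2888 exon bases with overlapping genes of the same strand. NOP2, an rRNA methyltransferase, had 3 to 18 counts per library and shares 2550 of its 4687 exon bases with an overlapping gene model. Reads in such shared bases are not counted for either gene. Copies of at least 90% identity lie elsewhere in the genome for 13 of the 60 genes, of which 5 were higher. Exons of 26 genes overlap a gene of the opposite strand, and since it is not stated whether counting used strand, their reads may include those of the other gene. Of these 26, 15 were higher, as were 18 of the other 34. Without NOP2, PWP2 and PPAN, 33 of 57 genes were higher and the median log2 fold change was 0.36. These genes also have the lowest log2 fold changes of the 60, so leaving them out could not lower the share or the median.

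**Figure D3:**
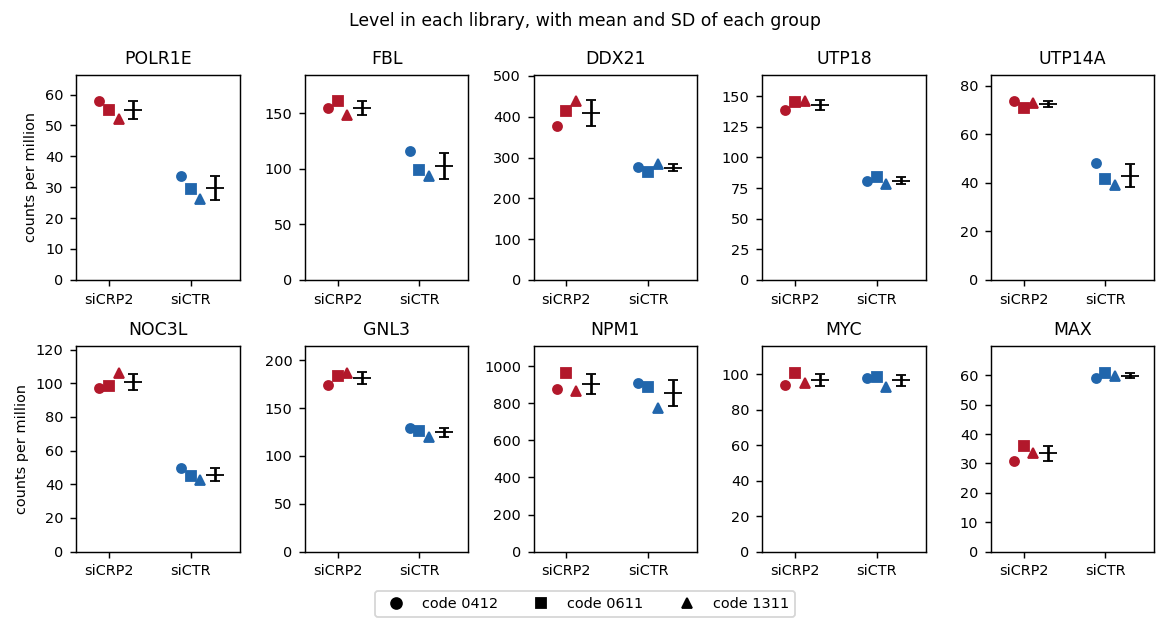
Level in CPM in each library for 8 of the 60 genes and for MYC and MAX, with siCRP2 libraries in red and siCTR libraries in blue; marker shapes give the code, and the bar gives the mean and SD of 3 libraries. POLR1E, FBL, DDX21, UTP18, UTP14A, NOC3L and GNL3 are higher in every siCRP2 library, NPM1 and MYC overlap, and MAX is lower in every siCRP2 library.

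Pairing libraries by code kept the 33 calls and added POLR1A, NHP2, NCL, NOLC1, WDR36, LTV1 and NOC2L, giving 40 genes higher and IMP3 lower. Over all genes that fit called 19.5% higher and 17.8% lower, and its p-values measure little of each gene's own spread between pairs. The values nearest the limit without pairing were those of WDR12, WDR75 and WDR3 (adjusted p = 0.038, 0.039 and 0.048) on the inside and of NOLC1, POLR1A, WDR36 and NCL (0.051, 0.055, 0.057 and 0.063) on the outside. The count of higher small-subunit genes depended on single libraries: it was 8 without the siCRP2 library 1311 and 9 without the siCRP2 library 0611. Over all genes these fits called 8.32% and 8.59% higher.

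Base composition moved with the fold changes and is given here beside them. Across the 10446 protein-coding genes, the median log2 fold change was 0.22 in the fifth of genes with the lowest GC content and -0.09 in the fifth with the highest. The 33 higher genes had a median transcript GC content of 45.5%, and the 27 that did not pass had one of 51.7%. With offsets for GC content and length, 31 of the 60 genes were higher and 0 lower, against 12.2% higher over all genes in that fit. It kept 27 of the 33 calls and lost BRIX1, WDR75, WDR3, WDR12, WDR43 and UTP11, whose transcripts have 38.2% to 43.0% GC. It added POLR1A, NHP2, NOC2L and BOP1, with 51.9% to 65.6% GC. The medians under this fit were 0.45 for RNA polymerase I, 0.33 for the large subunit and 0.20 for the small subunit, so that the small-subunit median was the most affected of these roles. The median of box C/D, with fewer genes, moved further, from 0.45 to 0.29.

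Promoters of the genes were read from RefSeq windows of 250 bases before to 50 bases after each start (GRCh38.p14), which were found for 51 of the 60 genes. POLR1E, NOP58, NOLC1, DCAF13, MPHOSPH10, RRP12, RRP1B, RRS1 and BOP1 were not matched. The E-box word CACGTG, which reads the same on both strands and is the word that MYC and MAX bind in other systems, was present in 21 of the 51 genes (41.2%), against 26.1% (29 of 111) of a further list of ribosome biogenesis genes that are not among the 60, 13.0% of protein-coding genes with at least 5 CPM and 8.77% of all genes with a promoter. Because 10 of the genes had more than 1 window, the share was also taken over the 41 with a single window, of which 16 (39.0%) held it. The word was in 17 of 29 genes that were higher and 4 of 22 that did not pass. It was found in 11 of 24 small-subunit genes, 6 of 13 large-subunit genes and 0 of 5 RNA polymerase I genes, the role with the highest median.

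Stretches around the word are shown for the 8 carriers with the smallest p and for PNO1, a carrier that did not pass. The word is in capitals and the rest in lower case, 5′ to 3′ on the strand of the gene.
NOC3L, chr10:94362903-94362932, minus strand: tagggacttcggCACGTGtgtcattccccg
UTP18, chr17:51260445-51260474, plus strand: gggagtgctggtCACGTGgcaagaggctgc
UTP18, chr17:51260538-51260567, plus strand: gcagcgaggttcCACGTGagcgcctgcgtt
UTP14A, chrX:129905914-129905940, plus strand: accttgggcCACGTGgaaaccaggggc
GNL2, chr1:37595917-37595946, minus strand: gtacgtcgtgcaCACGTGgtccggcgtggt
GNL3, chr3:52686026-52686055, plus strand: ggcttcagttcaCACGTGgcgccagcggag
DDX21, chr10:68956604-68956633, plus strand: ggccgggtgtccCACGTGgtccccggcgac
UTP4, chr16:69132621-69132650, plus strand: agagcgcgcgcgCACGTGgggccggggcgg
FBL, chr19:39846356-39846385, minus strand: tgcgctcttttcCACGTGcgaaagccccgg
PNO1, chr2:68157885-68157914, plus strand: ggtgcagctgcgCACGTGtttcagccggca
In NOC3L, GNL2, GNL3, FBL and PNO1 the word begins at base 20, 4, 7, 7 and 10 of the transcript. In 20 of the 21 carriers at least 1 copy began within 50 bases of the start.

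The 21 carriers had a median log2 fold change of 0.53 (range -0.27 to 1.14), and the 30 genes without the word one of 0.24 (range -0.33 to 0.64). These medians are descriptions of the same libraries and carry no test. Of the other words searched on both strands, CCGGAAG (or CTTCCGG) was in 41.2% of the 51 genes, against 24.4% of protein-coding genes with at least 5 CPM. It was in 14 of 29 genes that were higher and 7 of 22 that did not pass. CACGCG (or CGCGTG) was in 29.4% against 23.1%, and in 4 of 5 RNA polymerase I genes. CCAAT (or ATTGG) was in 39.2% against 43.9% and TTTCCTTC (or its reverse complement) in 1.96% against 3.26%. In the further list of ribosome biogenesis genes, CCGGAAG was in 36.9%, CACGCG in 30.6%, CCAAT in 39.6% and TTTCCTTC in 2.70%. The palindrome of NRF-1 was in 7.84% against 2.87%, and in 8.11% of that further list, and the ZNF143 word in 1.96% against 2.74%. A match names letters in a window and not a bound site.

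**Figure D4:**
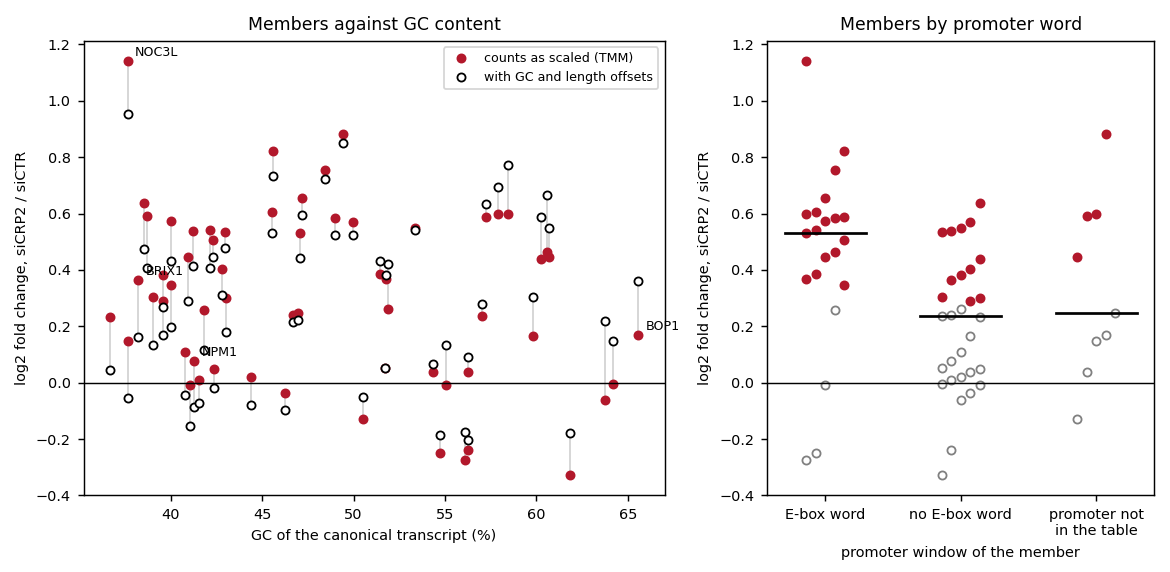
Left, log2 fold change against the GC content of the canonical transcript for the 60 genes, with red points as scaled by TMM and open points after GC and length offsets; a grey line joins both values of a gene. Right, log2 fold change of genes whose promoter window holds the E-box word (21), does not (30) or was not matched (9); filled points passed an adjusted p of 0.05 and lines are medians, 0.53 for carriers and 0.24 for genes without the word.

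MYC itself did not pass the test. It was at 94.1, 101 and 95.2 CPM in siCRP2 cells and 98.0, 98.6 and 92.8 CPM in siCTR cells, a log2 fold change of 0.00 ± 0.08 (adjusted p = 0.99, edgeR). Its obligate partner MAX was at 30.8, 36.0 and 33.6 CPM in siCRP2 cells, against 59.1, 60.8 and 59.9 CPM in siCTR cells. Every siCRP2 library was far below every siCTR library, and MAX was lower by a log2 fold change of -0.84 ± 0.10 (adjusted p = 7.4e-06). MXD3, a partner of MAX that represses genes at E-boxes, was at 5.77, 4.60 and 5.15 CPM in siCRP2 cells, against 18.4, 11.1 and 12.8 CPM in siCTR cells (-1.46 ± 0.19, adjusted p = 2.8e-05). MXI1, of the same repressor family, was lower as well (-0.38, adjusted p = 0.046).

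Further regulators of ribosome production were listed, 22 in all with the MYC network, of which 20 were tested, 6 were higher and 5 lower. Among protein-coding genes that averaged 5 CPM or more, 25.9% were higher and 18% lower, and the 20 genes are not set apart from these by any test. RPTOR, the substrate-binding subunit of the growth kinase complex mTORC1, was at 29.9, 36.6 and 36.4 CPM in siCRP2 cells, against 53.6, 53.5 and 62.2 CPM in siCTR cells (log2 fold change -0.72 ± 0.11, adjusted p = 0.00011, edgeR). Its kinase MTOR was lower too (-0.48). PDCD4, an inhibitor of translation initiation, was at 125, 104 and 93.8 CPM in siCRP2 cells, against 61.0, 67.8 and 56.1 CPM in siCTR cells (0.80 ± 0.11, adjusted p = 5.4e-05). CDKN1A, an inhibitor of cyclin-dependent kinases that halts the cell cycle (0.54), KDM2B, a nucleolar histone demethylase (0.43), and the ribosomal protein genes RPL5 and RPL11, whose free proteins bind MDM2 (0.36 each), were also higher, as was ARNT, a partner of other helix-loop-helix factors (0.26, adjusted p = 0.043, and 0.060 with DESeq2). MDM2 (0.21, adjusted p = 0.11) did not pass, but did with libraries paired by code (adjusted p = 0.011).

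The pattern of the 60 genes was set beside that of 130 other genes of ribosome biogenesis, all of which were tested. Of these, 70 were higher and 3 lower, with a median log2 fold change of 0.32. The higher genes were 29 of 46 of the large subunit, 10 of 15 of the RNA exosome, 8 of 12 of snoRNPs and their assembly, 13 of 32 of the small subunit, 6 of 15 of RNA polymerase I and 4 of 10 of RNase MRP. The medians by role ran from 0.26 for RNA polymerase I to 0.38 for the large subunit, so that the further subunits and cofactors of RNA polymerase I did not share the high median of the 6 listed ones.

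RRP15, a large-subunit factor, was at 53.3, 52.7 and 57.8 CPM in siCRP2 cells, against 32.2, 30.2 and 29.2 CPM in siCTR cells (log2 fold change 0.84 ± 0.10, adjusted p = 8.8e-06, edgeR). AATF, of a small-subunit complex, was at 170.4, 169 and 166 CPM in siCRP2 cells, against 112, 91.8 and 90.9 CPM in siCTR cells (0.78 ± 0.09, adjusted p = 1.05e-05). The groups of both were widely separated. SBDS, which readies the large subunit for translation and is mutated in Shwachman-Diamond syndrome, was at 213, 223 and 226 CPM in siCRP2 cells, against 144, 138 and 133 CPM in siCTR cells (0.67 ± 0.08, adjusted p = 1.2e-05).

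EXOSC9, a core subunit of the RNA exosome, was at 118, 120.3 and 126 CPM in siCRP2 cells, against 69.8, 79.6 and 75.1 CPM in siCTR cells (log2 fold change 0.70 ± 0.09, adjusted p = 1.4e-05, edgeR). CEBPZ, the human relative of yeast Noc1, which pairs with Noc2 there, was at 133, 139 and 135 CPM in siCRP2 cells, against 90.2, 85.3 and 84.7 CPM in siCTR cells (0.65 ± 0.08, adjusted p = 1.8e-05). The genes that were lower did not reach a 1.5-fold change: RRP36 of the small subunit (-0.54), and the polymerase subunits POLR1F (-0.44) and POLR2L (-0.34), of which POLR2L serves all 3 nuclear RNA polymerases.

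**Figure D5:**
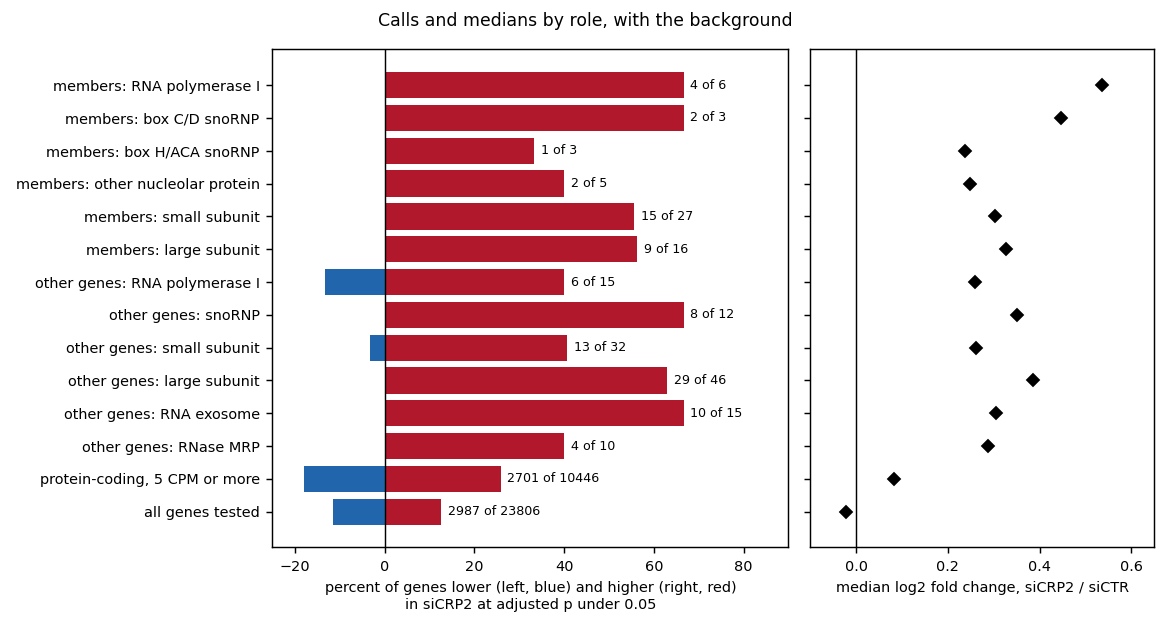
Left, percent of genes higher (red, with counts) and lower (blue) in siCRP2 cells at an adjusted p under 0.05 for each role of the 60 genes, for each role of the 130 other genes and for the background. Right, median log2 fold change of the same sets. All roles lie above the background medians of 0.08 and -0.02, and RNA polymerase I of the 60 genes is the highest at 0.54.

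Growth-related genes outside the pathway did not move in a single direction. Of 20 proliferation genes, 9 were higher and 3 lower, against 25.9% higher and 18% lower of protein-coding genes that averaged 5 CPM or more. Their median log2 fold change was 0.17, and 14 of the 20 were above 0. Of the 9 higher genes CDC25A, the phosphatase that opens DNA replication, changed most (2.13). The 3 lower genes were the mitotic genes CCNB1 (-0.78), AURKA (-0.62) and PLK1 (-0.66), and MKI67 (-0.23, adjusted p = 0.14) did not pass. Markers of other cell types were also measured. Of 5 leukocyte markers 3 were tested and CD14 was lower, and of 7 fibroblast and endothelial markers 6 were tested and PDGFRB and PECAM1 were lower. Their part in the values of the 60 genes was not tested.

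The word GCCTCAC was looked for in canonical transcripts because it had been found in earlier work on these libraries to be common among lower genes, so that its shares are no independent evidence. It was present in 47.3% of lower and 11.8% of higher protein-coding genes with at least 1 CPM, and in 22.1% of those that passed in neither direction. It was present in 2 of the 33 higher genes of the list, NOP58 and UTP20, and in 8 of the 27 that did not pass, POLR1A, NOP56, DKC1, NHP2, HEATR1, TBL3, LTV1 and NOC2L. MAX, MXD3, MTOR and RPTOR hold the word and MYC, MXI1, RRP36, POLR1F and POLR2L do not. CSRP2, the target of the siRNA, holds it as well.

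Small nucleolar RNAs encoded in introns of 8 of the 60 genes were too sparse to compare. Of 26 such RNAs, 12 had no count in any library and the highest had 29 counts over all 6. The libraries were made from polyadenylated RNA, so the levels of rRNA, of its precursors and of snoRNAs were not measured.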

How the data were processed

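Poly(A) RNA libraries were sequenced by the authors in paired-end reads of 75 bp and aligned with STAR to GRCh38 (the labels name GRCh38 and hg38). The deposited values are raw read counts per Ensembl gene from STAR's gene counting, which leaves out reads that match several places or several genes. Which annotation release and strand setting they used is not given in the sources used for this work. Symbols, positions and lengths came from GENCODE release 44, which matched 57754 of 58395 genes. Abundance per length used all annotated exons of a gene joined, and not its canonical transcript.

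Here, a gene was kept where at least 2 of 3 libraries of either group had counted it (23806 genes). The deposited counts, with TMM scaling, were tested in edgeR 4.0.16 (quasi-likelihood, robust) in R 4.3.3, with siCRP2 over siCTR and Benjamini-Hochberg adjustment over all genes kept. SE are those of the log2 fold change. Intervals were not computed; errors cover the spread between libraries, which the study describes as biological replicates. Library totals were 17336798 to 39115778 counts. Libraries of a group differed by more than sampling noise (chi-square at least 15.0 times its degrees of freedom). Copies of transcripts were searched with minimap2 2.31 (at least 90% identity over at least 40% of the transcript). The test was tried on simulated counts.

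Columns carry codes rather than the replicate numbers of the labels. Deviations from the group means correlated at 0.38 to 0.67 between libraries of the same code and at 0.09 or less between others (13196 genes), so the fit with code as a replicate block was taken as paired. Its adjusted p reached 1.9e-58 (NOC3L, edgeR), which 3 libraries a group cannot give without spread pooled over genes. Its p-values therefore measure little of each gene's own spread between pairs.

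All 60 genes are named. Values per library are given for the genes with the smallest p that passed in each role (6 for the small subunit, 5 for the large, 3 elsewhere), for the most abundant per length in each role, for lower genes, and, of the other ribosome biogenesis genes and their regulators, for the 8 with the smallest p, for lower genes with a fold of at least 1.5 and for MYC. Values per library of UBTF and IMP3 were added after they were seen. The genes, lists and promoter words were chosen with earlier results of these data known. Alternatives were DESeq2 1.42.0, library totals, upper quartile factors, filterByExpr, no filter, edgeR's exact test, the replicate block, GC and length offsets, and leaving out each library.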

Additional observations from a re-analysis of the deposited data

How the results depend on the processing

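Of the 33 genes higher in CRP2-depleted cells, 23 passed under all 14 alternatives (DESeq2, other scalings and filters, the exact test, the replicate block by code, GC and length offsets, and leaving out each library). Least stable were WDR3 and WDR75, which passed in 4 of the 14 each, WDR12 (5) and UTP11 (7). No gene that passed changed its direction. Without 1 library at a time, 24 to 37 of the 60 genes were higher, with 1.5-fold changes in 6 to 14. Over all genes the same fits called 8.32% to 13.3% higher. By role the counts of higher genes were 1 to 2 for box H/ACA, 2 to 4 for other nucleolar proteins and 8 to 15 for the small subunit. The median of the 130 other genes was 0.28 to 0.35. Fewer libraries also leave fewer degrees of freedom.

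The count of at least 1.5-fold higher genes, 11, was 7 with DESeq2, 6 with upper quartile factors, 6 with filterByExpr and 7 without a filter. It was 1 at over 2-fold, and 26 passed an adjusted p of 0.01 with no fold limit. In these settings the share of all genes past the same limits was not taken. With the replicate block, that is with libraries paired by code, 40 genes were higher and 1 (IMP3) lower, 2 box H/ACA genes and 4 other nucleolar genes were higher, and 8 of the 130 other genes were lower. With filterByExpr 1 of the 60 genes (IMP3) and 5 of the 130 were lower, against 20.3% of all genes in that fit. Library totals alone gave 4 higher other nucleolar genes, with 13.2% of all genes higher in that fit. GC and length offsets gave medians of 0.29 for box C/D, 0.20 for the small subunit and 0.28 for the 130 genes, and 2 higher box H/ACA genes. The median of the 130 was 0.27 with upper quartile factors and 0.28 with filterByExpr. The cause of these shifts was not tested.

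A change of sign occurred in 16 genes, none of which passed. With GC and length offsets the log2 fold change was 0.13 for UBTF, -0.086 for NPM1, -0.080 for UTP3, -0.073 for HEATR1, 0.22 for TBL3, -0.055 for DCAF13, -0.020 for BMS1, 0.15 for NOC4L and -0.043 for NIP7. With upper quartile factors it was -0.026 for UTP3, -0.039 for HEATR1, -0.012 for NOB1 and -0.012 for RRS1. With filterByExpr it was -0.025 for UTP3, -0.038 for HEATR1, -0.010 for NOB1 and -0.012 for RRS1. With library totals it was 0.012 for UBTF, 0.012 for PNO1 and 0.015 for NOC4L. With DESeq2 it was -0.0096 for HEATR1. Without a filter it was -0.010 for HEATR1. With the replicate block it was 0.0022 for UBTF. Leaving out a library gave -0.12 to 0.16 for UBTF, -0.0073 to 0.15 for NOP56, -0.11 to 0.039 for DKC1, -0.0023 to 0.12 for NPM1, -0.023 to 0.066 for UTP3, -0.073 to 0.10 for HEATR1, -0.15 to 0.017 for TBL3, -0.61 to 0.037 for PWP2, -0.0064 to 0.064 for BMS1, -0.0039 to 0.060 for NOB1, -0.058 to 0.036 for PNO1, -0.11 to 0.076 for NOC4L, -1.03 to 0.093 for NOP2 and -0.081 to 0.16 for RRS1. Low counts limit NOP2 and PWP2, with at most 24 per library.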
